A study of Homo sapiens with 6 samples.

Results

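EMP1, EMP3 and PMP22 are 3 of the 26286 genes counted in the series, and this is an account of their messages. They were taken by gene symbol from the read counts, and they were chosen by their CPM (library-scaled counts) in these same 6 libraries, so their own values are given as a description without a test. All 3 were counted in every library and passed the filter on low counts that left 14839 genes. The cells were HT-1080, an established human fibrosarcoma line, a connective tissue tumour line known to carry an activated NRAS gene. They were treated for 48 h with the vehicle DMSO, with 2 µM palbociclib, which inhibits the cell cycle kinases CDK4 and CDK6, or with 500 nM pimasertib, which inhibits MEK1 and MEK2, the kinases that activate ERK downstream of RAS. Each group had 2 libraries of RNA from whole cultures, 6 libraries in all, with 13607490 to 17500655 counts each. No label says whether the numbered replicates are separate cultures, and a p-value here therefore reflects only how far these libraries differ, which may be technical.

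The epithelial membrane proteins EMP1, EMP2 and EMP3 and the peripheral myelin protein PMP22 form a small family of membrane proteins that cross the membrane 4 times and are distant relatives of the claudins of tight junctions. PMP22 was identified early as a gene raised in growth-arrested fibroblasts, under the name growth arrest-specific 3, and is best known as a protein of compact myelin whose gene dosage decides inherited neuropathies. EMP1 and EMP3 are less well understood, and both have been tied to adhesion, to receptor trafficking and to the growth of tumour cells. The family does not share a locus. In the deposited tables, on build GRCh37, the protein-coding gene EMP1 (ENSG00000134531) spans chromosome 12 from 13349650 to 13369708 on the plus strand. EMP3 (ENSG00000142227) spans chromosome 19 from 48824766 to 48833810 on the plus strand, and PMP22 (ENSG00000109099) spans chromosome 17 from 15133095 to 15168643 on the minus strand. All values are sums over the exons of a whole gene, so isoforms and start sites were not separated.

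The stretch upstream of the start sites is shown for EMP1 and EMP3 because the first of these had the largest difference between groups and the second the smallest. Both are the 250 bases before a RefSeq start on build GRCh38.p14, on the plus strand, and letters in capitals mark matches to the AP-1 motif TGANTCA, which reads the same on both strands. AP-1 is the dimer of FOS and JUN proteins, whose amounts and activity ERK is known to raise. The 2 stretches are as follows.
EMP1, chr12:13196476-13196725: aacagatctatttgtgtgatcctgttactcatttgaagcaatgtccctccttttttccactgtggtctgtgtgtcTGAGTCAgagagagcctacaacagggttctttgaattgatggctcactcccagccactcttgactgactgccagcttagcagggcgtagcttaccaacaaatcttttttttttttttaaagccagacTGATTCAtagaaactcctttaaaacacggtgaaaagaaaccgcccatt
EMP3, start 1 of 2, chr19:48325302-48325551: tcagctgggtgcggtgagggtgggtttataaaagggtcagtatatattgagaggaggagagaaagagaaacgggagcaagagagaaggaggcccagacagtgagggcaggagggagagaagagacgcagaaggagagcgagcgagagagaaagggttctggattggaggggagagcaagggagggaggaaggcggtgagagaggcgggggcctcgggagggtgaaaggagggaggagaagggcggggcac

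The EMP1 stretch held 2 matches, TGAGTCA beginning 175 bases before the start and TGATTCA beginning 48 bases before it. Of 35116 such stretches in the RefSeq table, 6.57% held at least 1 match and 0.402% held 2 or more. The motifs were picked with the values of these genes known, and a match is a description of letters and not of binding. No AP-1 match lay in either stretch of EMP3, in any of the 3 stretches of PMP22 or in that of EMP2. The other motifs were searched on both strands in the same stretches. The letters GGGCGG, bound by SP1, were in those of EMP1 and EMP2, in 1 of 2 of EMP3 and in 2 of 3 of PMP22, and in 42.6% of all stretches. The letters CGGAAG, part of ETS factor sites, were in 1 stretch of PMP22 and in 16.5% of all, and TATAAA was in the printed stretch of EMP3 and in 10.7% of all. GGAATG, bound by TEAD factors and found in 11.9% of all stretches, was in none of the 7 stretches of the family, and neither were the E2F letters TTTGGCGC (0.550% of all) or the CArG box bound by SRF (1.16% of all).

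EMP1 was the member that differed most between treatments. Its level, in CPM (counts scaled to the library total), was 324 and 454 in the DMSO libraries, against 200.4 and 235 after palbociclib and 11.9 and 15.5 after pimasertib. Every palbociclib library lay below both DMSO libraries, and both pimasertib libraries lay far below the other four. These levels rest on 5336 and 6720 reads with DMSO, 2733 and 4191 with palbociclib, and 206 and 240 with pimasertib.

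The group means of EMP1 were 389 ± 92.1 CPM in DMSO, 218 ± 24.2 in palbociclib and 13.7 ± 2.58 in pimasertib (SD, n = 2 each). The fitted log2 fold change was -0.84 with an SE of 0.25 for palbociclib against DMSO, and -4.83 with an SE of 0.30 for pimasertib against DMSO, a level 28.4-fold lower. Between the drugs it was -3.99 with an SE of 0.28, so that EMP1 was 15.9-fold lower in pimasertib than in palbociclib. Both drug groups were set against the same DMSO libraries. In bulk RNA, fewer cells that make the message and less of it per cell cannot be told apart, and CPM shows a share of the library and not an amount per cell.

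The difference of EMP1 against the background of all genes can be read from its place. Among 8940 protein-coding genes with a mean of at least 10 CPM, EMP1 had the 6th lowest log2 fold change for pimasertib against DMSO and the 12th lowest for pimasertib against palbociclib. It was 459th from the lowest for palbociclib against DMSO. Among all 14839 tested genes, which include genes of lower counts, EMP1 was 29th, 54th and 1133rd from the lowest in the same order. Groups of 2 fail to overlap often: of the 14839 genes tested, 23.3% were lower without overlap in palbociclib than in DMSO, 32.6% in pimasertib than in DMSO and 27.7% in pimasertib than in palbociclib.

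**Figure D1:**
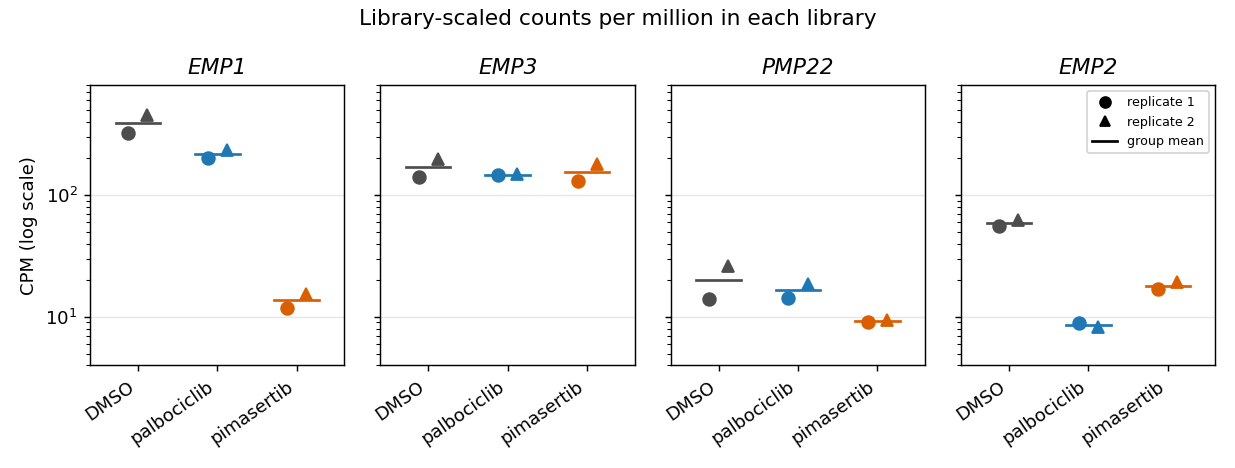
Level of EMP1, EMP3, PMP22 and EMP2 in each of the 6 libraries, in CPM on a log axis. Circles are replicate 1, triangles replicate 2 and lines group means; EMP1 runs from 454 CPM in a DMSO library to 11.9 in a pimasertib library, while EMP3 stays between 131 and 196 in every library.

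PMP22, the myelin protein gene, stood well below EMP1 in DMSO and palbociclib and well below EMP3 in all groups. It stood at 14.1 and 26.2 CPM in the DMSO libraries, 14.4 and 18.8 after palbociclib and 9.05 and 9.38 after pimasertib, from 232, 387, 196, 335, 157 and 145 reads. The palbociclib libraries lay between the DMSO libraries, and both pimasertib libraries lay below the other four. Means were 20.1 ± 8.54, 16.6 ± 3.10 and 9.21 ± 0.235 CPM (SD, n = 2 each). The log2 fold change of PMP22 was -0.28 (SE 0.30) for palbociclib against DMSO, within the spread of the libraries. For pimasertib it was -1.13 (SE 0.31) against DMSO, a level 2.19-fold lower, and -0.85 (SE 0.31) against palbociclib, a level 1.80-fold lower.

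The PMP22 values depended on DMSO replicate 2, the highest library. Without that library the log2 fold change for pimasertib against DMSO was -0.62, and that for palbociclib against DMSO was 0.23, opposite in sign to the value with all libraries. In the order of the 8940 genes PMP22 was 614th from the lowest for pimasertib against DMSO and 495th for pimasertib against palbociclib.

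EMP3 had the smallest differences between groups. It stood at 141 and 196 CPM in the DMSO libraries, 146 and 148 after palbociclib and 131 and 180 after pimasertib, from 1987 to 2902 reads a library. The ranges of the 3 groups overlapped in every comparison, and the gap between the DMSO libraries was larger than any difference between group means. Means were 169 ± 38.8, 147 ± 1.59 and 156 ± 34.3 CPM (SD, n = 2 each). The log2 fold change of EMP3 was -0.20 for palbociclib and -0.12 for pimasertib against DMSO and 0.08 between the drugs, each with an SE of 0.25. With an SE of that size, a moderate difference in EMP3 may go unseen.

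EMP2, the remaining member of the family, had yet another pattern, with 55.2 and 62.8 CPM in the DMSO libraries, 8.87 and 8.23 after palbociclib and 16.8 and 19.3 after pimasertib. By edgeR's quasi-likelihood test with Benjamini-Hochberg adjustment, EMP2 fell under palbociclib (log2 fold change -2.79, SE 0.22, adjusted p = 0.000893) and under pimasertib (-1.71, SE 0.21, adjusted p = 0.000411), in 2 of 2 libraries each. EMP2 was higher in pimasertib than in palbociclib by 1.08 (SE 0.21, adjusted p = 0.0101), a call lost without pimasertib replicate 2 (adjusted p = 0.0944). The drug with the lowest EMP1 was therefore not the drug with the lowest EMP2.

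**Figure D2:**
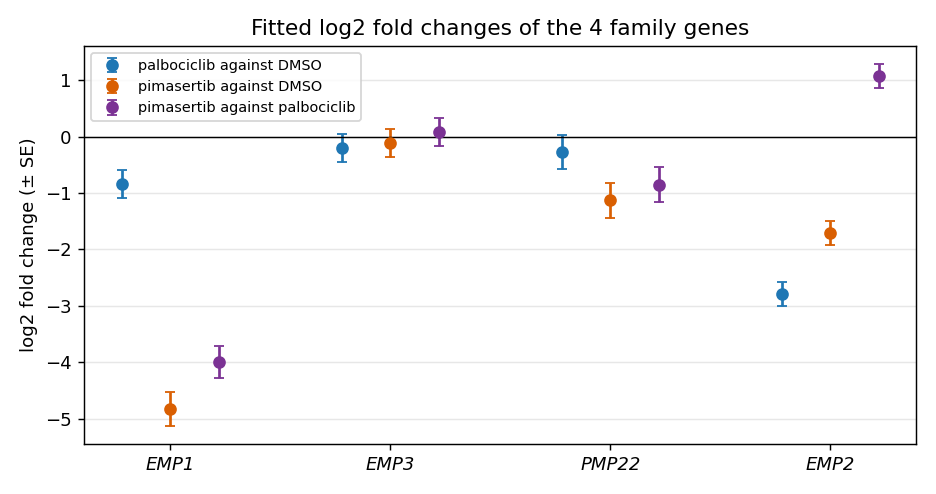
Fitted log2 fold changes of EMP1, EMP3, PMP22 and EMP2 for the 3 comparisons; points are estimates and bars are ± 1 SE. EMP1 has its lowest values in the 2 comparisons of pimasertib (-4.83 and -3.99), EMP2 its lowest in palbociclib against DMSO (-2.79), and EMP3 lies between -0.20 and 0.08 throughout.

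Genes differ in length, so their levels were compared per length, as the deposited FPKM (counts scaled to gene length and library total). In DMSO, EMP3 at 159 and 220 FPKM and EMP1 at 116 and 162 overlapped, and so did PMP22 at 7.62 and 14.2 and EMP2 at 10.4 and 11.9, both far below the first pair. In palbociclib the order was EMP3 (167 and 172), EMP1 (72.9 and 86.9), PMP22 (7.93 and 10.5) and EMP2 (1.62 and 1.71), with no overlap between neighbours in that order. In pimasertib EMP3 stood at 153 and 203 FPKM, and EMP1 at 4.39 and 5.56 overlapped PMP22 at 5.08 and 5.09. EMP2 followed at 3.30 and 3.66.

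By mean FPKM among 12566 tested protein-coding genes, EMP3 was the 210th highest in DMSO, the 243rd in palbociclib and the 213th in pimasertib. EMP1 went from the 316th place in DMSO to the 659th in palbociclib and the 7568th in pimasertib, from the top of the list to below its middle. PMP22 held the places 5084, 5556 and 7506.

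Ratios within a library do not depend on how libraries are scaled. EMP3 had 1.37 and 1.36 times the FPKM of EMP1 in the DMSO libraries, 2.29 and 1.98 times in palbociclib and 34.8 and 36.5 times in pimasertib. EMP1 had 15.2 and 11.4 times the FPKM of PMP22 in DMSO and 9.19 and 8.25 times in palbociclib, but 0.865 and 1.09 times in pimasertib. Of the summed FPKM of the 4 family genes, EMP1 made up 39.5% and 39.7% in the DMSO libraries, 29.2% and 32.0% after palbociclib and 2.65% and 2.56% after pimasertib. EMP3 made up 54.3% and 53.9%, 66.9% and 63.5%, and 92.3% and 93.4% in the same order. The share of PMP22 was 2.61% and 3.47% in the DMSO libraries, 3.18% and 3.88% after palbociclib and 3.07% and 2.35% after pimasertib. Both drug groups overlapped DMSO in this share, while the pimasertib libraries lay below both palbociclib libraries.

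**Figure D3:**
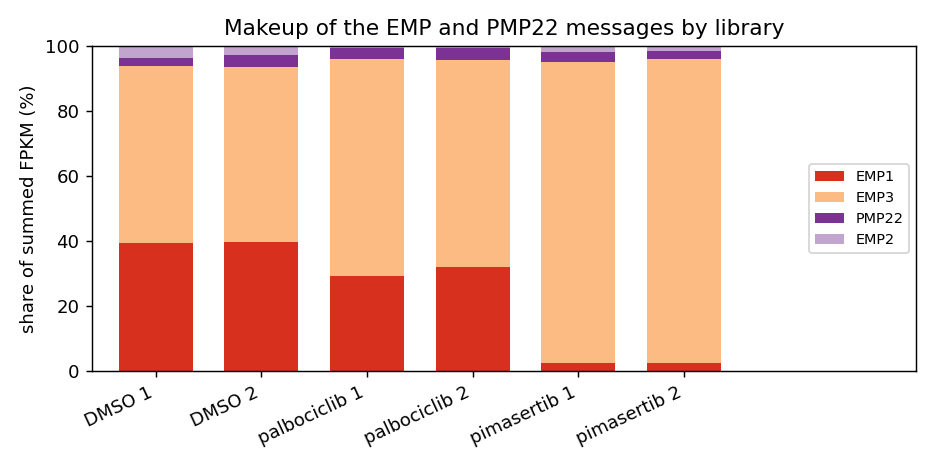
Share of each family gene in the summed FPKM of EMP1, EMP3, PMP22 and EMP2, in percent, 1 stacked bar per library. EMP3 makes up 53.9% to 54.3% in DMSO and 92.3% to 93.4% in pimasertib, where EMP1 is down to 2.56% to 2.65%.

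Replicate 2 was the higher library for all 3 members in every group. On the log2 CPM scale EMP1 was higher in replicate 2 than in replicate 1 by 0.49 with DMSO, 0.23 with palbociclib and 0.38 with pimasertib, EMP3 by 0.47, 0.02 and 0.45, and PMP22 by 0.89, 0.38 and 0.05. The median over all tested genes was -0.03, 0.02 and -0.01. The step of PMP22 in DMSO exceeded that of 89.7% of tested genes. Mitochondrially encoded protein genes also took a larger share of counts in replicate 2, with 3.21% and 5.67% in the DMSO libraries, 4.57% and 6.31% after palbociclib and 4.25% and 8.76% after pimasertib. The part of this shift in the members' values was not tested.

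The genes most like each member were found by the root mean square difference of log2 CPM over the 6 libraries, each gene centred on its own mean, among the same 8940 genes. Nearest to EMP1 were SPRY4, a feedback inhibitor of receptor kinase signalling (0.34), STC1, a secreted glycoprotein (0.35), IL8 (CXCL8), a chemokine (0.35), ETV4, an ETS transcription factor (0.40), and PLXNA4, a semaphorin receptor (0.46). The median gene stood 2.07 from EMP1. STC1 had 1174 and 1540 CPM in the DMSO libraries, 1220 and 1420 after palbociclib and 49.7 and 57.2 after pimasertib. Unlike EMP1, its palbociclib libraries lay between the DMSO libraries.

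Nearest to PMP22 were SFRP1, a secreted Wnt antagonist (0.12), VEGFC, a lymphatic growth factor (0.12), B3GNT5, a glycosphingolipid glycosyltransferase (0.12), HTR7, a serotonin receptor (0.13), and DCBLD2, a membrane receptor (0.14), against a median of 0.57. Nearest to EMP3 were RER1, which retrieves proteins to the endoplasmic reticulum (0.05), TPST1 (0.05), JAGN1 (0.06), ALG3 (0.06) and SURF4 (0.07), against a median of 0.39. SURF4 is a cargo receptor for export from the endoplasmic reticulum and ALG3 a mannosyltransferase of N-glycan assembly. EMP3 varied little, with a root mean square of 0.20 around its mean, so a gene with no variation would lie 0.20 from it. The nearest genes were closer than that and, like EMP3, were higher in replicate 2 in every group. Around their means, EMP3 stood at -0.14 and 0.34 in the DMSO libraries and RER1 at -0.12 and 0.29. In the pimasertib libraries EMP3 stood at -0.24 and 0.21 and RER1 at -0.19 and 0.14. Within the family EMP3 and PMP22 were 0.47 apart, EMP1 and PMP22 1.66, and EMP1 was 2.08 from both EMP3 and EMP2.

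**Figure D4:**
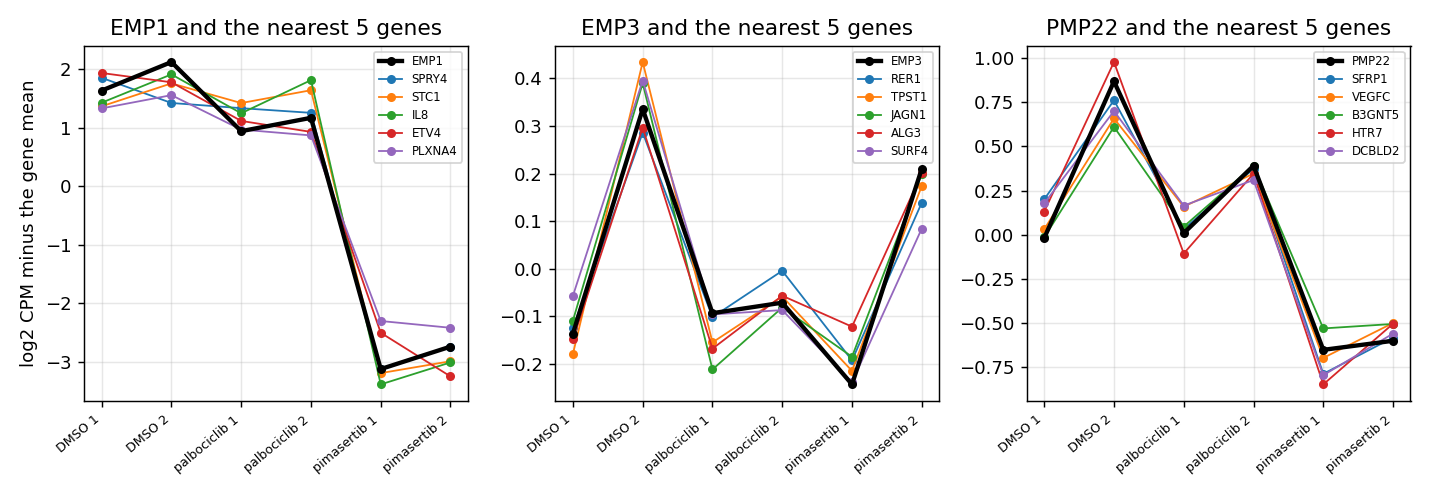
Log2 CPM minus the gene mean in each library for each member (black) and the 5 genes nearest to it; lines only connect values of 1 gene. The EMP1 panel shows a drop in both pimasertib libraries in all 6 genes, and the vertical range of the EMP3 and PMP22 panels is much smaller.

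More distant relatives of the family (claudins, PERP, TMEM47 and similar 4-pass proteins) were mostly silent. The list of 35 also holds EMP2, whose result is the one given above. Of the 35, 12 were tested, and 23 were under 1 CPM or absent in every library. Under palbociclib none rose, 1 fell, which was EMP2, and 11 did not pass, against 1.11% of all tested genes rising and 2.44% falling. Under pimasertib 2 rose, 1 fell, again EMP2, and 9 did not pass, against 11.1% and 11.7% of all genes. TMEM47, a junctional 4-pass protein, rose from 8.83 ± 0.713 CPM in DMSO to 31.0 ± 2.99 in pimasertib (SD, n = 2 each; log2 fold change 1.81, SE 0.23, edgeR adjusted p = 0.000574). CLDN11, the claudin of oligodendrocyte myelin and Sertoli cells, also passed (edgeR adjusted p = 0.0322), from 3 reads in each DMSO library to 26 and 24 in pimasertib, and it did not pass without any 1 of these 4 libraries (adjusted p = 0.0952 to 0.178). The median log2 fold change of the 12 was 0.14 for palbociclib and 0.24 for pimasertib, against 0.00 over all tested genes in both.

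EMP and PMP22 proteins are known to act beside integrins, caveolins, growth factor receptors and chaperones of the secretory pathway. Of 24 such partners 23 were tested, and P2RX7, a purinergic receptor, had 0 to 2 reads a library. None passed for palbociclib by edgeR or by DESeq2, with 6 at an unadjusted p under 0.05, and 1 rose without DMSO replicate 2 or palbociclib replicate 1. Under pimasertib 6 fell, 3 rose and 14 did not pass, against 11.7% of all tested genes falling and 11.1% rising. The rises were near that share. The median log2 fold change of the partners was -0.08. ITGA6, the integrin chain that binds laminin with ITGB4 or ITGB1, fell from 1840 ± 294 CPM to 156 ± 17.1 (log2 fold change -3.56, SE 0.27, edgeR adjusted p = 3.86e-05). The hyaluronan receptor CD44 fell by 1.86 on the log2 scale (SE 0.26, edgeR adjusted p = 0.000869), the epidermal growth factor receptor EGFR fell by 1.78 and the TGF-beta receptor TGFBR2 fell by 1.63.

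Among partners that rose under pimasertib, ITGAV, the integrin chain that binds vitronectin and fibronectin, went from 134 ± 57.0 CPM to 657 ± 7.37 (log2 fold change 2.29, SE 0.35, edgeR adjusted p = 0.00153). CAV2, a caveolin, rose by 1.11 on the log2 scale (edgeR adjusted p = 0.0109) and ITGB4 by 2.59 (edgeR adjusted p = 0.0295). CAV2 did not pass without pimasertib replicate 1, and ITGB4 did not without DMSO replicate 1 or either pimasertib library. The number of partners that rose was 1 without pimasertib replicate 1 and 6 without DMSO replicate 2. Between the drugs, 5 partners were lower in pimasertib, 1 was higher and 17 did not pass, against 4.31% of all genes lower and 5.07% higher. PTK2, the focal adhesion kinase, was among those lower, by -1.46 on the log2 scale (SE 0.21, edgeR adjusted p = 0.00150).

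**Figure D5:**
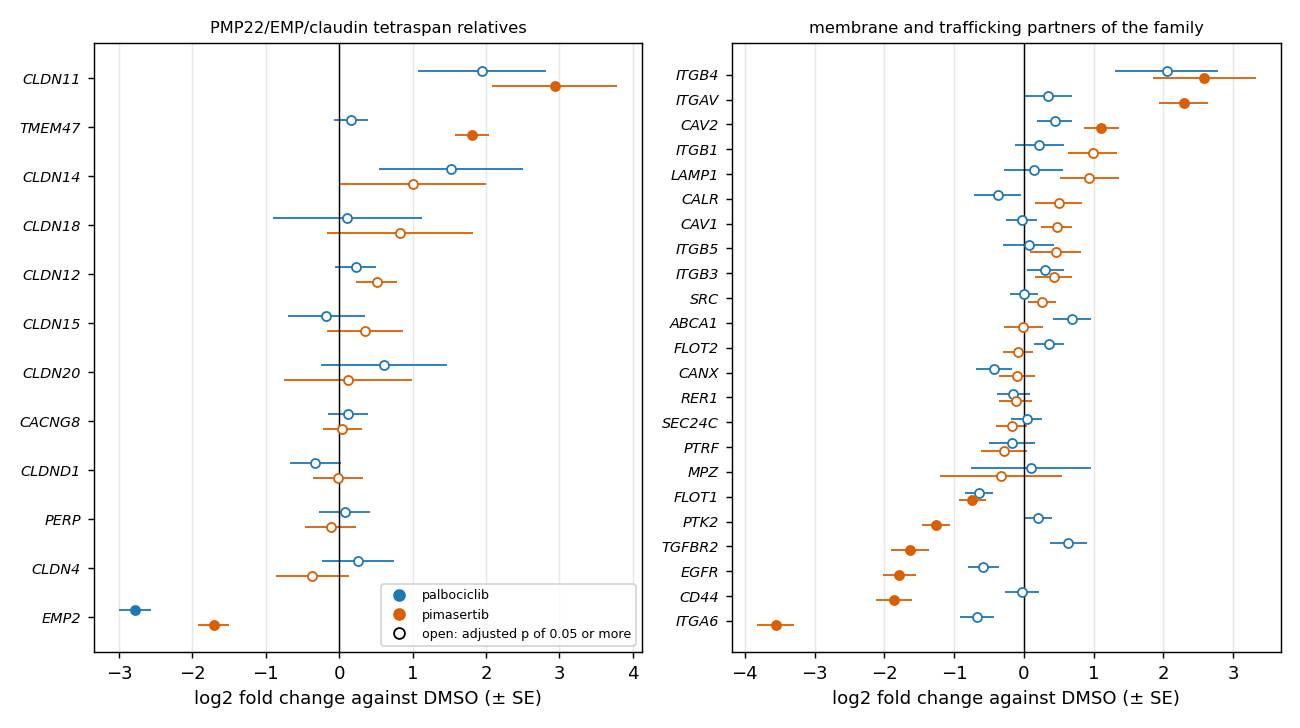
Log2 fold changes against DMSO (± 1 SE) of the tested relatives, on one side, and of the tested partners, on the other, for palbociclib (blue) and pimasertib (orange); filled points passed an adjusted p of 0.05. ITGA6 has the lowest pimasertib value among partners (-3.56) and EMP2 the lowest palbociclib value among relatives (-2.79).

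Beside EMP1 stood the genes that report ERK activity. Of 17 tested, 14 fell under pimasertib, none rose and 3 did not pass, where 11.7% of all tested genes fell. The median log2 fold change of the 17 was -2.65. DUSP4, a phosphatase that acts on ERK, fell by 5.07 on the log2 scale (SE 0.32, edgeR adjusted p = 1.04e-05), and the values of ETV4, SPRY4 and ETV5 were -4.76, -4.64 and -3.89, so the value of EMP1, -4.83, lay between the lowest and the next lowest of them. ETV4 and SPRY4 are also among the genes nearest to EMP1 above and are the same measurement. Under palbociclib 16 of the 17 did not pass and 1 fell, where 2.44% of all tested genes fell. It was FOSL1, a partner of JUN in AP-1 (log2 fold change -1.29, SE 0.25, edgeR adjusted p = 0.0174). That call was lost when DMSO replicate 1, palbociclib replicate 2 or either pimasertib library was left out. With only the 4 libraries compared, FOSL1 did not pass for palbociclib either (edgeR adjusted p = 0.0581). DUSP6, often used to check MEK inhibition, had 0 to 7 reads a library and could not serve here. CCND1, the cyclin D1 gene, stood at 1185 ± 402 CPM in DMSO, 2018 ± 642 in palbociclib and 188 ± 37.8 in pimasertib.

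PMP22 is also known as a growth arrest gene, so other genes of arrest and quiescence were set beside it. Of 22 tested, 11 rose under pimasertib, 2 fell and 9 did not pass, against 11.1% of all tested genes rising and 11.7% falling. The falls were near that share. The median log2 fold change of the 22 was 0.82. Without either of the pimasertib libraries, 6 rose and 1 fell. TXNIP, an inhibitor of thioredoxin, rose by 3.46 on the log2 scale, SESN3, a sestrin, by 2.09 and MXD4, a MYC antagonist, by 1.99. GAS1, another growth arrest-specific gene, rose by 1.85 (SE 0.41, edgeR adjusted p = 0.0107) and did not pass without either pimasertib library. PMP22, at -1.13, lay on the other side of 0 from these. KLF2, a zinc finger factor, fell by 1.46 and GAS2L1 fell by 0.81, the latter not passing without either pimasertib library. Under palbociclib TXNIP, SESN3 and MXD4 rose, by 2.58, 2.02 and 1.97, none fell and 19 did not pass, where 1.11% of all tested genes rose. Leaving out palbociclib replicate 1 gave 5 that rose.

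Genes of cell proliferation were set beside the members as a measure of cycling. All 20 tested fell under each drug, where 2.44% of all tested genes fell under palbociclib and 11.7% under pimasertib. Their medians were -1.80 for palbociclib and -1.65 for pimasertib, while EMP1 was -0.84 and -4.83. Some of the 20 calls under each drug were lost when 1 library was left out. MKI67, the Ki-67 antigen, went from 994 ± 252 CPM in DMSO to 168 ± 38.3 in palbociclib and 223 ± 1.94 in pimasertib. Of 17 tested targets of YAP, TEAD and SRF, 7 rose under pimasertib, 3 fell and 7 did not pass, with a median log2 fold change of 0.36, and under palbociclib 1 rose and 16 did not pass, with 2 rising without DMSO replicate 2 or palbociclib replicate 1. Of all tested genes 11.1% rose and 11.7% fell under pimasertib, and 1.11% rose under palbociclib. The list mixed YAP and TEAD targets with SRF targets, which were not counted apart, and it held TEAD1 and SRF themselves. MYL9, a myosin light chain, rose by 4.55 under pimasertib and TPM1, a tropomyosin, by 3.28. TEAD1, AXL and FHL2 fell, with values of -1.13, -1.07 and -0.82. No fall was called without pimasertib replicate 2, and 1 was without DMSO replicate 1 or pimasertib replicate 1.

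The neighbours of each member within 500 kb on GRCh37 were examined for changes shared along the chromosome. EMP1 had 6 tested neighbours, and under pimasertib none fell and 2 rose, where 11.7% of all tested genes fell and 11.1% rose. These were CDKN1B, the inhibitor p27 (log2 fold change 0.86, edgeR adjusted p = 0.0191), and APOLD1 (2.25, edgeR adjusted p = 0.0143), and neither passed without DMSO replicate 1 or either pimasertib library. PMP22 had 3, of which TRIM16, a ubiquitin ligase 363 kb away, rose by 2.10 under pimasertib (SE 0.23, edgeR adjusted p = 0.000216), and TVP23C and ZNF286A did not pass. EMP3 had 18, of which 5 rose, 2 fell and 11 did not pass under pimasertib, the falls being near that share of all genes. The nearest, TMEM143 at 1.80 kb, rose by 1.08 (SE 0.29, edgeR adjusted p = 0.0234), a call lost without any 1 of the DMSO or pimasertib libraries. CA11, a carbonic anhydrase-related gene, PLA2G4C, a phospholipase, DBP, a clock-controlled factor, and LMTK3, a kinase, rose by 4.53, 3.76, 2.44 and 3.25, while LIG1, a DNA ligase, fell by 1.02 and ZNF114 fell by 1.86. LMTK3 and LIG1 did not pass without pimasertib replicate 2, nor did ZNF114 without DMSO replicate 1 or pimasertib replicate 1.

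Under palbociclib no tested neighbour of EMP1 or PMP22 passed. Near EMP3, CA11 rose by 2.46 and PLA2G4C by 1.68 and LIG1 fell by 1.46, with 15 not passing. Of all tested genes 1.11% rose and 2.44% fell under palbociclib. The rises of CA11 and PLA2G4C were lost without DMSO replicate 1, palbociclib replicate 2 or either pimasertib library. With only the 4 libraries compared, CA11 (edgeR adjusted p = 0.155) and PLA2G4C (edgeR adjusted p = 0.132) did not pass either. CA11 also did not pass with a stricter filter on low counts (edgeR adjusted p = 0.0594). EMP3 overlaps CCDC114 on the opposite strand. The sources used here do not say if counting used the strand, and reads of the pair then cannot be told apart. CCDC114 had 0 to 10 reads a library. No gene of the tables overlaps EMP1 or PMP22.

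Markers of the cell types for which the family is named were low. Of 16 Schwann cell and myelin markers, 10 were under 1 CPM or absent in every library, and their sum was 46.8 to 54.9 CPM, most of it DRP2 (38.3 to 48.0). SOX10, the Schwann cell factor, reached 0.517 CPM at most. Of the 5 tested, NGFR, the low-affinity neurotrophin receptor, fell under palbociclib (log2 fold change -2.54, edgeR adjusted p = 0.0435) and under pimasertib (-2.91, edgeR adjusted p = 0.00740), both lost without either pimasertib library and the first also without DMSO replicate 2 or palbociclib replicate 2. With only the 4 libraries compared, NGFR did not pass for palbociclib either (edgeR adjusted p = 0.0803). Of all tested genes 2.44% fell under palbociclib and 11.7% under pimasertib. Of 16 epithelial markers, 12 were under 1 CPM or absent throughout. Their sum was 2.92 and 4.73 CPM in the DMSO libraries, 4.18 and 16.2 after palbociclib and 3.40 and 4.59 after pimasertib, and CDH1, E-cadherin, was at 0 in 5 libraries. None of the 2 tested epithelial or 3 tested leukocyte markers passed against DMSO by edgeR or DESeq2, with 0 epithelial markers and 1 leukocyte marker at an unadjusted p under 0.05. Without palbociclib replicate 1, 2 epithelial markers were called higher under palbociclib. In palbociclib replicate 2 the keratin genes KRT19 and KRT14 had 164 and 36 reads, against 0 to 7 and 0 in the other libraries, and their part in the members' values was not tested. Of 16 leukocyte markers 13 were under 1 CPM or absent throughout, with a sum of 8.26 to 12.5 in DMSO, 8.79 to 9.09 in palbociclib and 16.3 to 17.2 in pimasertib, and PTPRC, the CD45 gene, was at 0 in 5 libraries. Of 12 endothelial markers 7 were under 1 CPM or absent throughout, among them CDH5, VE-cadherin, at 0.304 CPM at most. The endothelial sum was not low, at 216 to 336 CPM in DMSO, 359 to 460 in palbociclib and 187 to 257 in pimasertib. Most of it was TIE1, with 130 and 219 CPM in the DMSO libraries, 262 and 341 after palbociclib and 134 and 188 after pimasertib. Of 5 tested endothelial markers none passed for palbociclib by edgeR or DESeq2, with 1 at an unadjusted p under 0.05, and 2 rose without DMSO replicate 2. Under pimasertib ROBO4 fell from 78.4 ± 10.5 CPM to 13.3 ± 2.89 (edgeR adjusted p = 8.38e-05), and EGFL7 rose by 1.15 on the log2 scale (edgeR adjusted p = 0.0463). For comparison, 11.7% of all tested genes fell and 11.1% rose under pimasertib. The EGFL7 call was lost with a stricter filter on low counts (edgeR adjusted p = 0.0590), and without DMSO replicate 1 or either pimasertib library.

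Mesenchymal markers had a sum of 3765 to 5418 CPM in DMSO, 5692 to 8006 in palbociclib and 11763 to 15507 in pimasertib. SPARC alone had 860 and 1710 CPM in the DMSO libraries, 1454 and 2427 after palbociclib and 7200 and 10377 after pimasertib. Levels were uneven, from means in DMSO of 1285 CPM for SPARC and 994 CPM for VIM to under 1 CPM in every library for THY1. Of 14 tested, 1 rose under palbociclib, SNAI2, by 1.27 on the log2 scale (2 rose without DMSO replicate 2 and 5 without palbociclib replicate 1), and under pimasertib 6 rose, 1 fell and 7 did not pass, with a median log2 fold change of 0.60. COL1A1, a fibrillar collagen chain, rose by 6.06 (SE 0.92, edgeR adjusted p = 0.00143), but did not pass with no filter on low counts (0.169) or without any 1 of the DMSO or pimasertib libraries (0.0572 to 0.366). SPARC, a matrix glycoprotein, rose by 2.77 (SE 0.41, edgeR adjusted p = 0.00116). Of all tested genes 1.11% rose under palbociclib, and 11.1% rose and 11.7% fell under pimasertib. The marker that fell was ZEB1, by 0.86 (SE 0.25, edgeR adjusted p = 0.0319). The ZEB1 call was lost without DMSO replicate 1 or either pimasertib library. Its log2 fold change was -0.56 without DMSO replicate 1, -1.11 without pimasertib replicate 1 and -0.64 without pimasertib replicate 2. VIM, at 592 ± 113 CPM in pimasertib, was also lower but did not pass (edgeR adjusted p = 0.0505). The count of 6 was 2 without DMSO replicate 1, 1 without pimasertib replicate 1 and 2 without pimasertib replicate 2.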

How the data were processed

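RNA of 6 libraries, 2 each of DMSO, palbociclib and pimasertib, was analysed. CASAVA, STAR 2.5, HTSeq 0.6.1 and DESeq2, with the builds hg19 and GRCh37, are listed in the submitters' processing notes. The authors deposited 1 table per drug with raw read counts per gene and FPKM. In the deposited FPKM each count is divided by the gene's length and the library total. Both tables held the same DMSO counts for shared genes, and missing genes were set to 0.

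The test was edgeR 4.0.16 (R 4.3.3): filterByExpr (minimum count 10, total 15), TMM, glmQLFit (robust) on 3 groups over 6 libraries, then a two-sided glmQLFTest, adjusted by Benjamini-Hochberg over 14839 genes, at a threshold of 0.05. The filter kept all 3 members. On simulated counts for pimasertib against DMSO (14429 genes), 50 genes were changed per fold, all with a mean count over 50. The test recovered 94% and 100% of genes changed 0.25-fold and 4-fold, but 30% and 38% of those changed 0.5-fold and 2-fold, with 9 false calls. Recovery at lower counts was not simulated, and far fewer genes were changed than were called in the data. CPM uses the TMM-scaled total, with a prior count of 2 for log2. An SE is the log2 fold change divided by the square root of F. Member values have no test.

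The members and the 11 gene lists (relatives, partners, growth arrest, ERK output, YAP/TEAD and SRF targets, proliferation, and mesenchymal, Schwann, epithelial, leukocyte and endothelial markers) were chosen with earlier results of these data known. Named were the family, up to 4 called genes per list, direction and comparison, the 5 genes nearest to each member, called neighbours within 500 kb, and MKI67, CCND1 and DUSP6; single markers named for their level, partners without reads and uncalled neighbours were named after their values were seen. RefSeq stretches are on GRCh38.p14 and gene positions on GRCh37. Alternatives were other scalings and filters, DESeq2 1.42.0, 4 libraries only, a replicate block and leaving out each library. PCR copies of a read were not identified, so reads are not independent molecules.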

Additional observations from a re-analysis of the deposited data

How the results depend on the processing

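The log2 fold changes of EMP1 stayed below 0 under all 13 alternatives, and leaving out each library gave -1.06 to -0.58 for palbociclib against DMSO, -5.06 to -4.57 for pimasertib against DMSO and -4.20 to -3.82 between the drugs. The same ranges were -0.42 to 0.05, -0.35 to 0.13 and -0.16 to 0.28 for EMP3, and -0.66 to 0.23, -1.51 to -0.62 and -1.03 to -0.63 for PMP22. The number of genes called for palbociclib against DMSO, 526, was 1097 with no filter, 834 with DESeq2, 325 with only the 4 libraries compared and 334 to 762 with 1 library left out. For pimasertib against DMSO it was 3376, and 1055 to 4082 with 1 library left out. Between the drugs it was 1393, with 2256 without the filter and 456 to 1941 with 1 library left out. The cause of these shifts was not tested. Where 1 library was left out, the lone sample of its group was assumed to vary like the other groups. Replicate numbers are shared by the groups, but no label says that a number marks a shared culture or day, so the block is only an alternative; deviations of same-numbered libraries correlated across genes at 0.397, 0.351 and 0.345. Of the calls named, that of COL1A1 was lost with the replicate block (adjusted p = 0.0643). With the replicate block the calls were 2953, 6551 and 4702, and the log2 fold changes were -0.82, -4.82 and -4.00 for EMP1, -0.18, -0.12 and 0.06 for EMP3 and -0.25, -1.07 and -0.82 for PMP22, in the order palbociclib against DMSO, pimasertib against DMSO and between the drugs. Of the counts over gene lists under the alternatives, 724 stayed within 1.5 times and 134 did not. PMP22, with 145 to 387 reads a library, is the member whose values depth limits most.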
